A study of Homo sapiens with 6 samples.

Results

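The human mitochondrial genome carries 37 genes, and all of them were counted in RNA sequencing of A549 cells, a human lung adenocarcinoma line. They were chosen by name, as the rows of the count table whose symbol starts with MT-, and made up 37 of the 35474 genes listed. The group was selected with its share of the counts in both conditions already known. Its values in this contrast are therefore a description, set beside the same values over all genes.

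The study compared 3 cultures transfected with siRNA targeting BAP18 (siBAP18) with 3 given non-specific siRNA (siCtrl), all A549 and all collected 48 h after transfection. BAP18 is a subunit of chromatin-remodeling complexes and is encoded by C17orf49. Which of the study's BAP18 siRNAs these cultures received is not given in the sources used here, and a single cell line was profiled. Poly(A)-selected, strand-marked paired libraries with reads of 150 bases were sequenced, per the labels.

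The mitochondrial genome encodes the RNA part of its own ribosome (2 rRNAs), 13 mRNAs for subunits of the respiratory chain and ATP synthase, and the 22 tRNAs that translate them. Both strands are transcribed as long precursors by POLRMT, a dedicated RNA polymerase, with TFAM and TFB2M. The tRNAs lie between most of the longer genes and are cut out by processing enzymes, which releases the rRNAs and mRNAs. Most of those are then polyadenylated inside the organelle, and several mRNAs obtain their stop codon only through these added A bases. The remaining respiratory chain subunits and every protein needed for mitochondrial gene expression are encoded in the nucleus.

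The library totals ranged from 42094524 to 56548620 counts, and all 37 mitochondrial genes were among the 20776 genes tested. The lowest count of any of them in any library was 372, for MT-TF in siCtrl replicate 3. C17orf49 was hit by 743, 751 and 705 counts in the siCtrl cultures and by 120, 137 and 108 in the siBAP18 cultures, a log2 fold change of −2.65 ± 0.11 (SE, edgeR adjusted p = 7.31e-16). The 5 epithelial markers checked were all present, with summed levels of 18930 to 20450 CPM (counts relative to the library total, scaled by edgeR's TMM factors) in siCtrl and 14066 to 17514 in siBAP18. KRT8 and KRT18 made up most of this sum and were lower in siBAP18 (log2 fold change −0.37 and −0.24, edgeR adjusted p = 3.36e-04 and 0.0102). EPCAM (−0.41, edgeR adjusted p = 3.78e-05) and CDH1 (−1.32, edgeR adjusted p = 3.81e-14) were lower too, CDH1 from 63.9 to 25.5 CPM. KRT19 did not pass the test (0.15, edgeR adjusted p = 0.0894). Of the markers of other cell types, 6 of 8 were analysed here, and their sum was 12.6 to 13.8 CPM in siCtrl and 9.0 to 10.6 CPM in siBAP18. Nearly all of that sum was COL1A1, which had up to 611 counts and was lower in siBAP18 (log2 fold change −0.38, edgeR adjusted p = 0.00124). PECAM1, with at most 45 counts, was lower too (−1.53, edgeR adjusted p = 0.00123), and VWF and HBB had at most 6 counts in any library. The part of these shifts in the results below was not tested.

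Mitochondrial genes took a smaller share of every siBAP18 library than of any siCtrl library. The share was 7.43%, 7.08% and 6.86% of the library total in siCtrl replicates 1, 2 and 3 (7.13% ± 0.284, SD, n = 3). It was 5.74%, 5.27% and 6.14% in the siBAP18 replicates (5.72% ± 0.431, SD, n = 3). The difference was −1.41 percentage points, a ratio of 0.802, and the groups did not overlap. With siBAP18 replicate 2 lowest and replicate 3 highest, the siBAP18 cultures also differed more among themselves than the siCtrl cultures did. In bulk RNA, fewer mitochondrial transcripts per cell and more nuclear transcripts per cell cannot be told apart.

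Each class of RNA had a smaller share in siBAP18. The mRNA genes held 5.13% ± 0.212 of the library in siCtrl and 4.20% ± 0.363 in siBAP18, a ratio of 0.819. For the rRNA genes the shares were 1.87% ± 0.0681 and 1.40% ± 0.0606, with a ratio of 0.751. The tRNA genes took 0.125% ± 0.00505 and 0.111% ± 0.00870, with a ratio of 0.892 (SD, n = 3 in each group). In all 3 classes each siBAP18 library lay below each siCtrl library, by the widest ratio for rRNA and the narrowest for tRNA. The ratio over nuclear counts alone was 0.790.

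**Figure D1:**
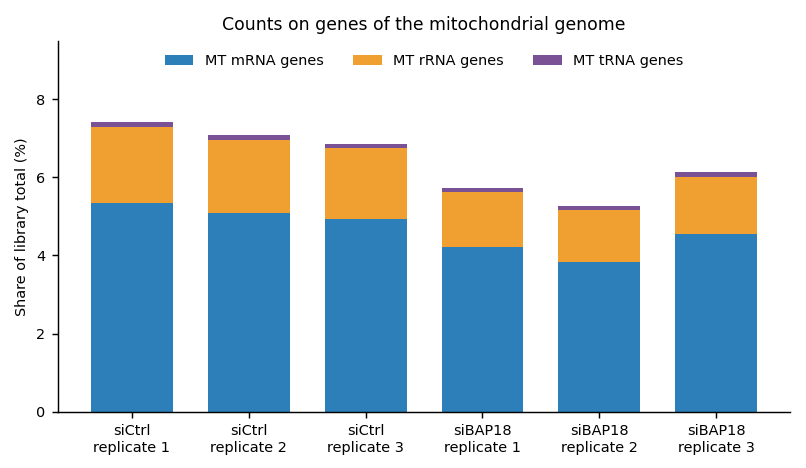
Share of each library's counts on mitochondrial mRNA, rRNA and tRNA genes, in percent of the library total, as stacked bars for the 6 libraries. The siCtrl bars reach 6.86% to 7.43% and the siBAP18 bars 5.27% to 6.14%, and the mRNA genes hold most of each bar.

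Gene by gene, 20 of the 37 mitochondrial genes were lower in siBAP18, 2 were higher and 15 did not pass the test (edgeR quasi-likelihood test, adjusted p under 0.05 over all genes tested). Over all genes tested, 25.1% were called lower and 24.5% higher. The changes were small, from −0.45 to 0.31 on the log2 scale with a median of −0.22, against a median of 0.0010 for all genes. None of the 37 passed the study's fold threshold of an absolute log2 value over 1, which 8.46% of all genes did together with the adjusted p. In 14 genes every siBAP18 library lay below every siCtrl library, and in 2 every one lay above, while 29.0% and 27.6% of all genes had these orders. The p-values rest on the spread between the 3 cultures of each group, which edgeR moderates toward a trend over all genes tested. They do not reflect a gene's own spread alone. MT-TK, with overlapping groups, had an edgeR adjusted p of 0.0274 but a DESeq2 adjusted p of 0.399.

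The siBAP18 cultures kept a common order across most of the group. Replicate 3 was the highest of the siBAP18 libraries in 33 of 37 genes, and in all 13 mRNA genes. Replicate 2 was the lowest in 26 genes and replicate 1 in the other 11. In siCtrl, replicate 1 was the highest in 28 of 37. Without siBAP18 replicate 3, 28 genes were called lower, and without siBAP18 replicate 1, 15 were.

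Of the 2 rRNAs, 1 passed the test. MT-RNR2 (chrMT:1671-3229, GRCh38, plus strand), the large ribosomal RNA and the member with the most counts, fell in siBAP18. It was at 19320, 18169 and 17943 CPM in siCtrl and 13561, 12771 and 14933 CPM in siBAP18, so the highest siBAP18 culture was well below the lowest siCtrl culture. The log2 fold change was −0.43 ± 0.07 (SE, edgeR adjusted p = 2.6e-05). MT-RNR1 (chrMT:648-1601, plus strand), the small ribosomal RNA, was at 289, 265 and 279 CPM in siCtrl and 322, 270 and 307 CPM in siBAP18, with overlapping groups. Its log2 fold change of 0.11 ± 0.07 did not pass the test (edgeR adjusted p = 0.205). Without siBAP18 replicate 2 it was called higher, at 0.18 (edgeR adjusted p = 0.0136).

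These libraries held far more reads on the large than on the small rRNA. Per kilobase, MT-RNR2 was at 11827 ± 433 RPKM in siCtrl and MT-RNR1 at 290 ± 9.93 RPKM (SD, n = 3). The number of MT-RNR2 counts per MT-RNR1 count was 66.9, 68.6 and 64.3 in siCtrl and 42.1, 47.3 and 48.6 in siBAP18. The ratio thus separated the groups, in the direction set by the fall of MT-RNR2. The libraries were selected for poly(A) tails, so the level of an rRNA here is the level of its poly(A)-bearing part.

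The 3 cytochrome c oxidase mRNAs were all lower. MT-CO1 was at 8938, 8416 and 8346 CPM in siCtrl and 7184, 6164 and 7340 CPM in siBAP18, a log2 fold change of −0.31 ± 0.07 (SE, edgeR adjusted p = 9.95e-04). MT-CO2 had the largest fall of the mRNAs, from 2176, 1952 and 1814 CPM to 1452, 1262 and 1647 CPM, a change of −0.45 ± 0.08 (edgeR adjusted p = 8.8e-05). MT-CO3 was at 11259, 10854 and 10696 CPM in siCtrl and 8653, 7606 and 10049 CPM in siBAP18, a change of −0.32 ± 0.08 (edgeR adjusted p = 0.00201). These genes encode the catalytic core of complex IV, and in each of them the siBAP18 cultures lay wholly below the siCtrl cultures.

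MT-ATP6 and MT-ATP8, which encode membrane subunits of ATP synthase, were lower as well. For MT-ATP6 the levels were 9567, 9035 and 9132 CPM in siCtrl and 7429, 6711 and 8525 CPM in siBAP18, a log2 fold change of −0.29 ± 0.08 (SE, edgeR adjusted p = 0.00299), with no overlap. MT-ATP8 was at 748, 672 and 575 CPM in siCtrl and 476, 425 and 629 CPM in siBAP18, a change of −0.38 ± 0.10 (edgeR adjusted p = 0.00327). Here siBAP18 replicate 3 was above siCtrl replicate 3, and the call was lost with DESeq2 (adjusted p = 0.159). So it was with limma on log2(RPKM + 0.1) (adjusted p = 0.0743) and on log2(RPKM + 1) without a filter (adjusted p = 0.147).

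The 2 genes are read from one RNA and share 46 bases (chrMT:8527-8572), which are shown because a read there fits either gene. Capitals mark the start codon of MT-ATP6 and the stop codon of MT-ATP8. The same holds on a smaller scale for MT-ND4L and MT-ND4, which share 7 bases (chrMT:10760-10766). The counts of these pairs are uncertain to that extent. Sequences are from GENCODE 29 transcripts on GRCh38, plus strand.
MT-ATP8 and MT-ATP6: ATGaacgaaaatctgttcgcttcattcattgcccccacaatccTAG
MT-ND4L and MT-ND4: ATGcTAA

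The mRNAs of complex I, the entry point of electrons from NADH, were split. Of its 7 mitochondrial genes, MT-ND4, MT-ND4L and MT-ND5 were lower with no overlap between groups, and the other 4 did not pass the test. MT-ND4 went from 5464, 5143 and 4703 CPM to 4003, 3472 and 4476 CPM, a log2 fold change of −0.36 ± 0.08 (SE, edgeR adjusted p = 7.36e-04). MT-ND4L, its overlapping neighbour, went from 1588, 1420 and 1321 CPM to 1155, 976 and 1187 CPM, a change of −0.38 ± 0.08 (edgeR adjusted p = 2.57e-04). MT-ND5 was at 3109, 2895 and 3027 CPM in siCtrl and 2219, 2299 and 2697 CPM in siBAP18, a change of −0.32 ± 0.07 (edgeR adjusted p = 7.73e-04).

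MT-ND1, MT-ND2, MT-ND3 and MT-ND6 had overlapping groups. MT-ND1 was at 3693, 3352 and 3347 CPM in siCtrl and 3292, 2757 and 3608 CPM in siBAP18 (log2 fold change −0.11, edgeR adjusted p = 0.298). MT-ND2 was at 3276, 2931 and 2927 CPM in siCtrl and 2816, 2465 and 3179 CPM in siBAP18 (−0.11, edgeR adjusted p = 0.270). In both genes siBAP18 replicates 1 and 2 were below every siCtrl culture and replicate 3 was within their range. MT-ND3 had the smallest difference of the mRNAs, −0.04 (edgeR adjusted p = 0.728), with siBAP18 replicate 3 above every siCtrl culture at 769 CPM. MT-ND6, the only mRNA on the minus strand, was at 666, 593 and 684 CPM in siCtrl and 443, 570 and 704 CPM in siBAP18 (−0.18, edgeR adjusted p = 0.157). The siBAP18 cultures thus spread over a wider range than for any other mRNA relative to its level. Without siBAP18 replicate 3 all 4 genes were called lower, at −0.19, −0.20, −0.18 and −0.35 for MT-ND1, MT-ND2, MT-ND3 and MT-ND6.

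MT-CYB, the single complex III subunit of the mitochondrial genome, was lower. It was at 2818, 2575 and 2488 CPM in siCtrl and 2190, 1798 and 2428 CPM in siBAP18, a log2 fold change of −0.30 ± 0.09 (SE, edgeR adjusted p = 0.00519). The groups were apart by a small margin, since siBAP18 replicate 3 lay just under siCtrl replicate 3. The call was lost with limma on log2(RPKM + 0.1) (adjusted p = 0.0523) and on log2(RPKM + 1) without a filter (adjusted p = 0.0880). In total 9 of the 13 mRNAs were lower, beside 25.1% of all genes. All 13 fold changes were below 0, so 0 were higher by edgeR, also at an unadjusted p under 0.05, and by DESeq2 and limma.

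**Figure D2:**
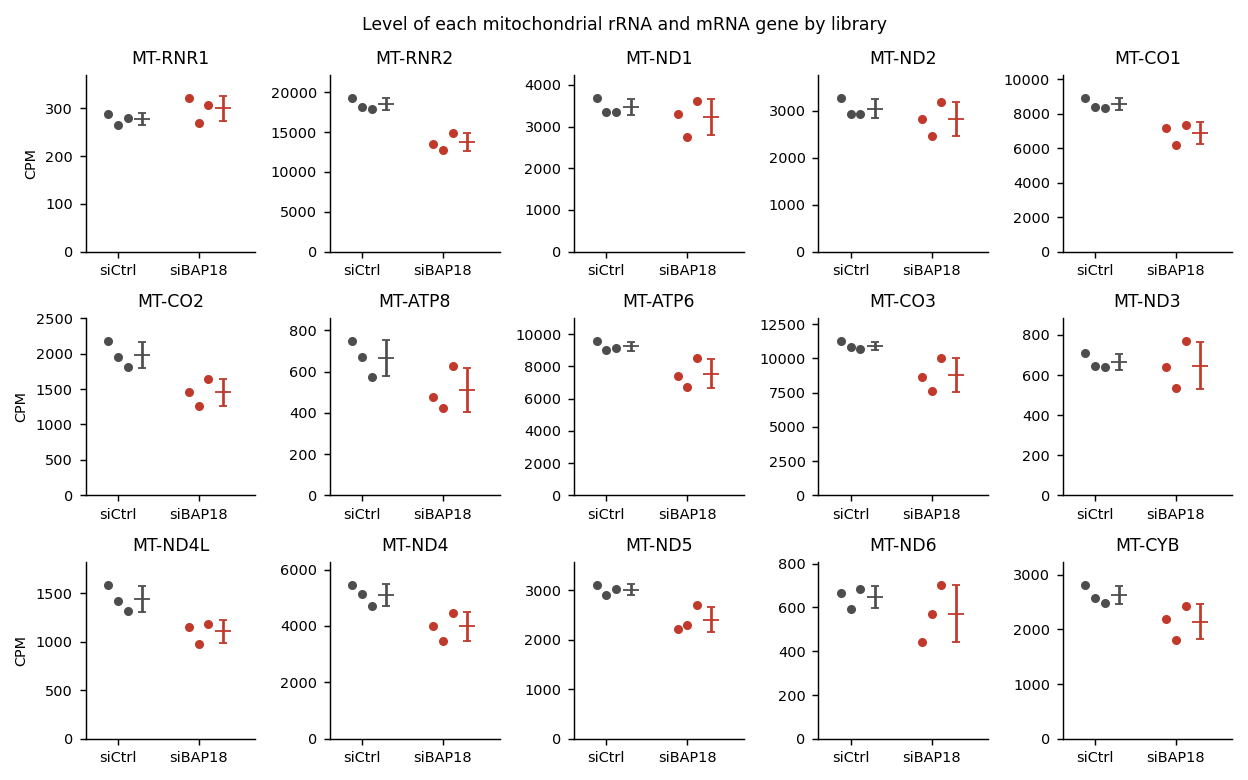
TMM-scaled CPM of the 2 rRNA and 13 mRNA genes in each library, each panel on its own linear axis from 0, with replicates 1 to 3 from left to right as points and the mean ± SD (n = 3) beside them. MT-RNR2 and the 3 MT-CO genes show separate groups, while MT-RNR1, MT-ND1, MT-ND2, MT-ATP8, MT-ND3 and MT-ND6 overlap.

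Levels per kilobase were far from even, although the precursors span many genes. In siCtrl, MT-CO3 at 13921 ± 352 RPKM and MT-ATP6 at 13546 ± 332 RPKM led, and these neighbours differed by about their spread (SD, n = 3). Reads on nuclear copies are not in these levels, and they amounted to 29.3 counts on MTATP6P1 for every 100 on MT-ATP6 but 1.04 on MTCO3P12 for every 100 on MT-CO3, and with the copies added MT-ATP6 would lie above MT-CO3. MT-RNR2 at 11827 ± 433 RPKM followed, and MT-CO1 was next at 5544 ± 189 RPKM. The lowest mRNA was MT-ND6 at 1231 ± 79.9 RPKM, with MT-ND5 at 1658 ± 43.3 RPKM. In siBAP18, MT-CO3 at 11162 ± 1162 RPKM and MT-ATP6 at 11076 ± 942 RPKM still led. MT-RNR2, MT-CO3, MT-ATP6 and MT-CO1 together held 66.2% of mitochondrial counts in siCtrl and 64.6% in siBAP18.

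The 3′ ends of the mRNA genes were read from the sequence, because the genome leaves some stop codons to be completed by polyadenylation. In 6 of the 13 genes (MT-ND1, MT-ND2, MT-CO3, MT-ND3, MT-ND4 and MT-CYB) the gene ends within its stop codon, and 3 of these were lower, with a median log2 fold change of −0.20. In the 7 genes with a whole last codon, 6 were lower, with a median of −0.32. Over all genes tested, 25.1% were lower. The sets follow the listed gene ends. MT-ATP6 is in the second set by its listed end at base 9207, which is also the first base of MT-CO3. Whether that base stays on the MT-ATP6 mRNA cannot be read from the counts, so its place is uncertain. The ranges overlapped, from −0.36 to −0.04 in the first set and from −0.45 to −0.18 in the other. The last 20 bases of 4 plus-strand genes are shown, from the 3 uncalled genes with an incomplete stop codon and from the mRNA with the largest fall. Capitals mark what the genome holds of the stop codon.
MT-ND1 (chrMT:4243-4262): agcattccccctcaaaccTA
MT-ND2 (chrMT:5492-5511): ttttatactaataatcttaT
MT-ND3 (chrMT:10385-10404): aggattagactgaaccgaaT
MT-CO2 (chrMT:8250-8269): ggcccgtatttaccctaTAG

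Among the 22 tRNA genes, 10 were lower, 2 were higher and 10 did not pass the test (all genes: 25.1% lower and 24.5% higher). These genes are 59 to 75 bases long, shorter than a read, so a read counted on one can reach into its neighbours or come from an uncut precursor. Poly(A) selection adds to this, since mature tRNAs end in CCA and not in a poly(A) tail. The counts are therefore levels of RNA that covers the tRNA gene, not of mature tRNA.

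The 4 tRNA genes with the most counts, MT-TC, MT-TS1, MT-TY and MT-TN, all lie on the minus strand. They encode the tRNAs for cysteine, serine, tyrosine and asparagine. MT-TC was at 162 ± 11.7 CPM in siCtrl and 142 ± 17.1 CPM in siBAP18 (SD, n = 3), with overlapping groups (log2 fold change −0.19, edgeR adjusted p = 0.0524). MT-TS1 (−0.07, edgeR adjusted p = 0.419) and MT-TN (−0.18, edgeR adjusted p = 0.0697) did not pass the test. Without siBAP18 replicate 3, MT-TC, MT-TS1 and MT-TN were called lower (edgeR adjusted p = 0.00209, 0.0477 and 0.00340). MT-TC and MT-TN were also called lower by edgeR without a filter and with a replicate block. For MT-TC this held as well with the edgeR likelihood ratio test, on total counts only and without siCtrl replicate 2. MT-TY was lower by the test at −0.20 ± 0.08 (edgeR adjusted p = 0.0385), although its groups overlapped. Its call was lost without siCtrl replicate 1 or 3 and without siBAP18 replicate 1 or 2. The call was also lost with DESeq2 (adjusted p = 0.0674), with edgeR and upper-quartile scaling (adjusted p = 0.0527) and in every limma alternative (adjusted p = 0.0833 to 0.168).

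The largest falls among the tRNAs were in MT-TS2, MT-TL2, MT-TW and MT-TG, the tRNA genes for serine, leucine, tryptophan and glycine. MT-TS2 was at 23.0, 23.8 and 27.2 CPM in siCtrl and 16.3, 17.7 and 20.3 CPM in siBAP18, a log2 fold change of −0.45 ± 0.09 (SE, edgeR adjusted p = 1.18e-04). MT-TL2, which starts at the base after it, was at 14.4, 15.7 and 17.3 CPM in siCtrl and 10.3, 11.3 and 13.6 CPM in siBAP18, a change of −0.44 ± 0.10 (edgeR adjusted p = 5.85e-04). In both, the groups were apart, and siCtrl replicate 3 and siBAP18 replicate 3 were the highest of their groups. MT-TG fell by 0.43 ± 0.07 (edgeR adjusted p = 2.5e-05) and MT-TW by 0.44 ± 0.10 (edgeR adjusted p = 9.42e-04), in both cases with no overlap. For MT-TW the siBAP18 cultures were at 42.0, 47.6 and 66.0 CPM and the lowest siCtrl culture at 68.2 CPM, so replicate 3 was close to siCtrl, and the call was lost with DESeq2 (adjusted p = 0.0974). That call was also lost with limma on log2(RPKM + 1) without a filter (adjusted p = 0.0907).

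The genes called higher were MT-TF and MT-TL1, which encode the tRNAs for phenylalanine and leucine. Both are described here because of their direction, seen in the values. MT-TF was at 8.65, 8.08 and 7.96 CPM in siCtrl and 10.2, 9.14 and 11.3 CPM in siBAP18, a log2 fold change of 0.31 ± 0.10 (SE, edgeR adjusted p = 0.0115). Without siCtrl replicate 3 its adjusted p was 0.0537. MT-TL1 was at 74.8, 66.5 and 67.8 CPM in siCtrl and 90.5, 75.5 and 87.8 CPM in siBAP18, a change of 0.28 ± 0.07 (edgeR adjusted p = 0.00308). In both genes every siBAP18 culture lay above every siCtrl culture, for MT-TL1 by a small margin.

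MT-TF and MT-TL1 are the tRNA genes on either side of the rRNA genes. MT-TF ends at the base before MT-RNR1, and MT-TL1 starts at the base after MT-RNR2. MT-TV, the tRNA gene for valine between the rRNAs, had a log2 fold change of −0.01 (edgeR adjusted p = 0.945). The rises therefore flanked one rRNA that did not pass the test and one that fell. The sequences of the 2 higher genes are shown beside 3 neighbours that fell, MT-TH (−0.39, edgeR adjusted p = 0.00268), MT-TS2 and MT-TL2, which follow each other without a gap. MT-TH lost its call with limma on log2(RPKM + 0.1) and on log2(RPKM + 1) without a filter (adjusted p = 0.0593 and 0.118), while MT-TS2 and MT-TL2 were called in every alternative. All are on the plus strand, in the sequence of GENCODE 29 on GRCh38, with the anticodon in capitals. MT-TL1 and MT-TL2 both carry leucine with different anticodons and moved in opposite directions.
MT-TF (chrMT:577-647): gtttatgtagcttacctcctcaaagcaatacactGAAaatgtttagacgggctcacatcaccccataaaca
MT-TL1 (chrMT:3230-3304): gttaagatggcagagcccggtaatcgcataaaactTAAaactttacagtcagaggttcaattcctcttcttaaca
MT-TH (chrMT:12138-12206): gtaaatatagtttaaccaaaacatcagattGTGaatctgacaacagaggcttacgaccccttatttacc
MT-TS2 (chrMT:12207-12265): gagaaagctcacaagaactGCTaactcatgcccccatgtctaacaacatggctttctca
MT-TL2 (chrMT:12266-12336): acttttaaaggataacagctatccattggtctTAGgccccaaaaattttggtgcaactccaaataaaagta

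Along the plus strand, the falls lay mostly downstream of MT-ND2. Of the 9 plus-strand genes from MT-TF to MT-ND2, 2 were lower and 2 higher, with a median log2 fold change of −0.01. Those calls were near the 25.1% lower and 24.5% higher of all genes. Of the 19 plus-strand genes from MT-TW to MT-TT, 15 were lower and 0 higher, with a median of −0.33 and all 19 fold changes below 0. This division was drawn after the values were seen and has no test. The 9 minus-strand genes had a median of −0.18, with 3 called lower, and in none of them were the groups apart. Whether the counting used strand is not given in the sources used here, so for these 9 genes reads from the gene and from the RNA opposite it cannot be told apart.

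**Figure D3:**
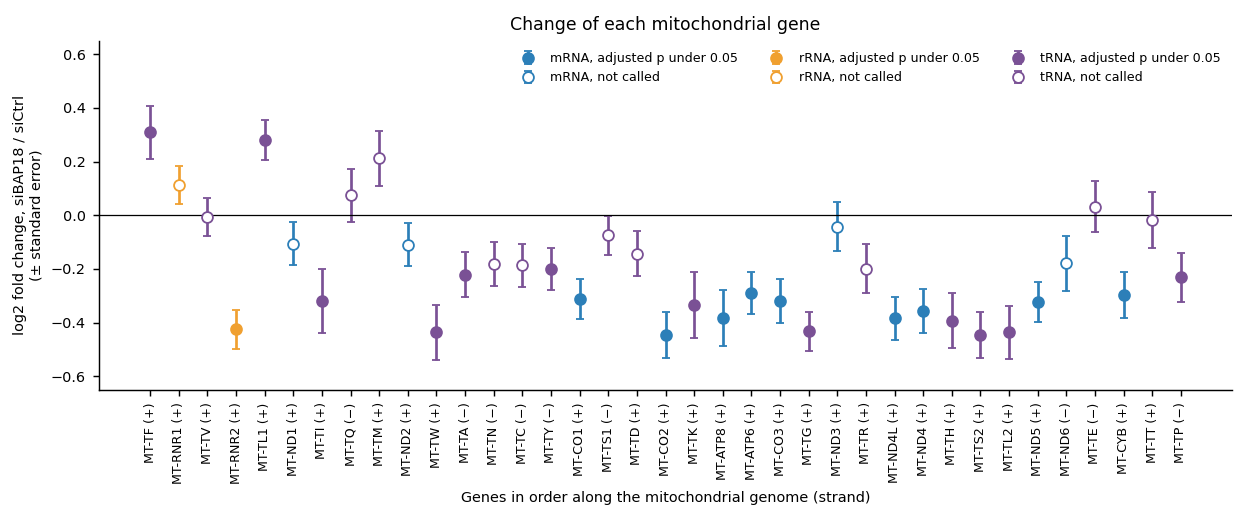
Log2 fold change (siBAP18 over siCtrl, ± standard error, n = 3 in each group) of the 37 mitochondrial genes in genome order, with the coding strand after each name and filled points where the adjusted p was under 0.05. MT-TF (0.31) and MT-TL1 (0.28) are the filled points above 0, and the genes from MT-TW on lie below 0 except MT-TE.

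Within the mitochondrial counts, the rRNA genes together held less and mRNA and tRNA genes held more in siBAP18. The rRNA share of mitochondrial counts was 26.2%, 26.3% and 26.3% in siCtrl and 24.4%, 25.5% and 23.9% in siBAP18. The mRNA share was 72.0% ± 0.114 in siCtrl and 73.4% ± 0.830 in siBAP18, and the tRNA share was 1.75% ± 0.0512 and 1.94% ± 0.0105 (SD, n = 3). All 3 shares separated the groups, and siBAP18 replicate 2 was nearest to siCtrl for rRNA and mRNA. The rRNA fall was that of MT-RNR2. MT-RNR1 went the other way, from 0.389% ± 0.0130 in siCtrl to 0.526% ± 0.0420 in siBAP18, with the groups apart. Minus-strand genes held 1.91% ± 0.0981 and 2.11% ± 0.160 of mitochondrial counts, and there the groups overlapped.

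Single genes were compared in the same way, each as a share of the mitochondrial counts of its library. In 14 genes every siBAP18 share lay above every siCtrl share, and in 2 genes, MT-RNR2 and MT-CO2, every one lay below. MT-RNR2 held 25.9% ± 0.0855 of mitochondrial counts in siCtrl and 24.1% ± 0.819 in siBAP18. MT-CO2 held 2.77% ± 0.141 and 2.54% ± 0.0580. MT-ND1, among the 14, held 4.85% ± 0.0738 in siCtrl and 5.61% ± 0.196 in siBAP18, and MT-ND2 held 4.26% ± 0.0987 and 4.92% ± 0.0843 (SD, n = 3). Shares of one total are tied to each other, so a fall of MT-RNR2 raises the shares of the others to some extent. Relative to the mRNA genes only, which leaves MT-RNR2 out, the log2 share of the tRNA genes was still higher in siBAP18, by 0.12. Within all mitochondrial counts that difference was 0.15.

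**Figure D4:**
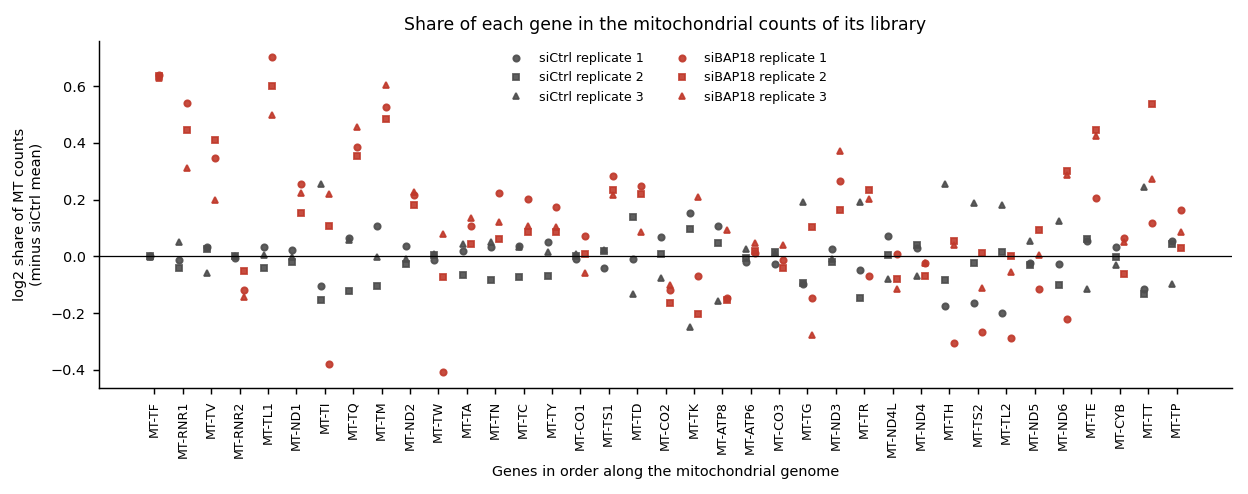
Log2 share of each gene in the mitochondrial counts of its library, minus the mean of the siCtrl libraries, for the 37 genes in genome order, with 1 point for each library. The red siBAP18 points lie wholly above the grey siCtrl points in 14 genes, among them MT-TF, MT-RNR1, MT-TL1, MT-ND1 and MT-ND2, and wholly below in MT-RNR2 and MT-CO2.

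The nuclear genes that act on the mitochondrial genome were read from the same fit, in lists compiled by hand. Over 6 lists with 104 genes tested, 34 were lower, 34 were higher and 36 did not pass the test. That is 32.7% in each direction, beside 25.1% lower and 24.5% higher over all genes. The median log2 fold change was 0.07, against 0.0010 for all genes.

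The list closest to transcription had a median of −0.22, with 5 of 10 genes lower and 1 higher (all genes: 25.1% and 24.5%). MTERF2, of the family of mitochondrial transcription termination factors, fell by 0.76 ± 0.09 on the log2 scale (SE, edgeR adjusted p = 1.3e-07), from 14.8 ± 0.753 to 8.71 ± 0.688 CPM (SD, n = 3). MTERF3, a family member known to restrain transcription, fell by 0.53 ± 0.11 (edgeR adjusted p = 3.08e-04). TFAM, which packages mitochondrial DNA and starts transcription, fell by 0.38 ± 0.07, from 25.1 ± 0.905 to 19.2 ± 0.798 CPM (edgeR adjusted p = 1.2e-04). POLRMT was at 67.0 ± 3.38 CPM in siCtrl and 65.7 ± 7.23 CPM in siBAP18, with a fold change of −0.03 (edgeR adjusted p = 0.766). The 1 higher call was lost without siBAP18 replicate 1 and without siCtrl replicate 2, leaving 0.

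Of the genes of mitochondrial DNA replication and maintenance, 8 of 21 were lower (38.1%) and 10 higher (47.6%), against 25.1% and 24.5% of all genes, with a median log2 fold change of 0.10. With limma on log2(RPKM + 1) without a filter, 5 were lower. DNA2, a nuclease and helicase of nucleus and mitochondria, had the largest fall of the 6 lists, −1.60 ± 0.13 (SE, edgeR adjusted p = 2.77e-10). SUCLA2, a subunit of succinyl-CoA ligase that is needed to keep mitochondrial DNA, fell by 0.72 ± 0.09 (edgeR adjusted p = 2.59e-07). DGUOK, the mitochondrial deoxyguanosine kinase, rose by 0.76 ± 0.07 (edgeR adjusted p = 4.88e-09). POLG, the catalytic subunit of the mitochondrial DNA polymerase, rose from 61.7 ± 1.12 to 78.4 ± 2.34 CPM (0.34 ± 0.07, edgeR adjusted p = 9.34e-05).

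Of the processing and modification enzymes, 7 of 23 were lower (30.4%) and 9 higher (39.1%), with a median of 0.07, where 25.1% and 24.5% of all genes were called. Only 3 were lower with limma on log2(RPKM + 0.1) and 4 on log2(RPKM + 1). MRM3, which methylates the large mitochondrial rRNA, rose by 0.55 ± 0.07 (SE, edgeR adjusted p = 1.97e-07). TRNT1, which adds the CCA end to tRNAs, fell by 0.53 ± 0.08 (edgeR adjusted p = 9.44e-06). MTO1, which modifies a wobble uridine of mitochondrial tRNAs, fell by 0.74 ± 0.12 (edgeR adjusted p = 8.91e-06).

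For stability, polyadenylation and decay, 6 of 21 genes were lower (28.6%) and 4 higher (19%), with a median of 0.0086. These shares are near the 25.1% and 24.5% of all genes, and in each of the 3 limma alternatives 3 were lower. LRPPRC, which binds and stabilises the mitochondrial mRNAs, was at 103 ± 0.448 CPM in siCtrl and 91.1 ± 8.58 CPM in siBAP18 (−0.18 ± 0.07, edgeR adjusted p = 0.0369). That call was lost when any library but siBAP18 replicate 2 was left out, with an adjusted p of 0.0922 to 0.106. It was also lost with edgeR on total counts only (adjusted p = 0.0765) and in every limma alternative (adjusted p = 0.150 to 0.270). SLIRP, its partner protein, rose by 0.30 ± 0.06 (edgeR adjusted p = 3.45e-04). SUPV3L1, the helicase that unwinds mitochondrial RNA for decay, rose by 0.54 ± 0.08 (edgeR adjusted p = 1.76e-06). DDX28, a helicase of mitochondrial ribosome assembly, rose by 0.82 ± 0.09 (edgeR adjusted p = 4.47e-08).

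Regulators of mitochondrial number and turnover were the last of these lists. Of 13 biogenesis regulators, 3 were lower (23.1%) and 4 higher (30.8%), near the 25.1% and 24.5% of all genes, with a median of 0.04. With limma on log2(RPKM + 1) without a filter, 2 were higher. The 3 lower genes were PPARGC1A, a coactivator of mitochondrial gene programmes, SIRT1, a deacetylase that acts on it, and PRKAA1, a catalytic subunit of the energy sensor AMPK. They fell by 0.72 ± 0.09, 0.57 ± 0.09 and 0.50 ± 0.08 (SE, edgeR adjusted p = 3.16e-07, 4.64e-06 and 4.65e-06). Of 16 mitophagy genes, 5 were lower and 6 higher, with a median of 0.17, beside 25.1% and 24.5% of all genes. Without siCtrl replicate 1, 3 were higher, and with limma on log2(RPKM + 0.1), 3 were lower. SQSTM1, an autophagy receptor, rose from 746 ± 23.9 to 1492 ± 104 CPM (1.00 ± 0.07, edgeR adjusted p = 1.18e-11). OPTN, another receptor, rose by 0.56 ± 0.07 (edgeR adjusted p = 2.5e-07), while BNIP3L, a receptor in the outer mitochondrial membrane, fell by 0.59 ± 0.07 (edgeR adjusted p = 1.67e-07).

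The nuclear-encoded partners of the mitochondrial products had medians above 0, where those of the mitochondrial genes were below. Of 76 nuclear subunits of the respiratory chain and ATP synthase, 29 were higher (38.2%) and 9 lower (11.8%), with a median log2 fold change of 0.12, while 24.5% and 25.1% of all genes were called. Without siCtrl replicate 1, 5 were lower, as with limma on log2(RPKM + 0.1). The complex I subunits NDUFS3 (0.47 ± 0.07, SE, edgeR adjusted p = 4.75e-06) and NDUFS6 (0.49 ± 0.08, edgeR adjusted p = 1.02e-05) were among those that rose. NDUFS3 went from 52.0 ± 1.84 to 72.1 ± 5.79 CPM (SD, n = 3), with every siBAP18 culture above every siCtrl culture.

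Of 78 mitochondrial ribosomal protein genes, whose products assemble on the rRNAs, 46 were higher (59.0%) and 8 lower (10.3%), with a median of 0.22, against 24.5% and 25.1% over all genes. Leaving out siCtrl replicate 1 or 3 gave 5 lower genes, as did limma on log2(RPKM + 0.1). MRPL22, MRPL58 and MRPS34 rose by 0.91 ± 0.08, 0.86 ± 0.07 and 0.92 ± 0.08 (SE, edgeR adjusted p = 3.54e-10, 3.55e-10 and 3.73e-10). MRPS34, a protein of the small subunit, went from 145 ± 4.16 to 274 ± 34.2 CPM (SD, n = 3). The difference between the nuclear lists and the mitochondrial genes was not tested.

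**Figure D5:**
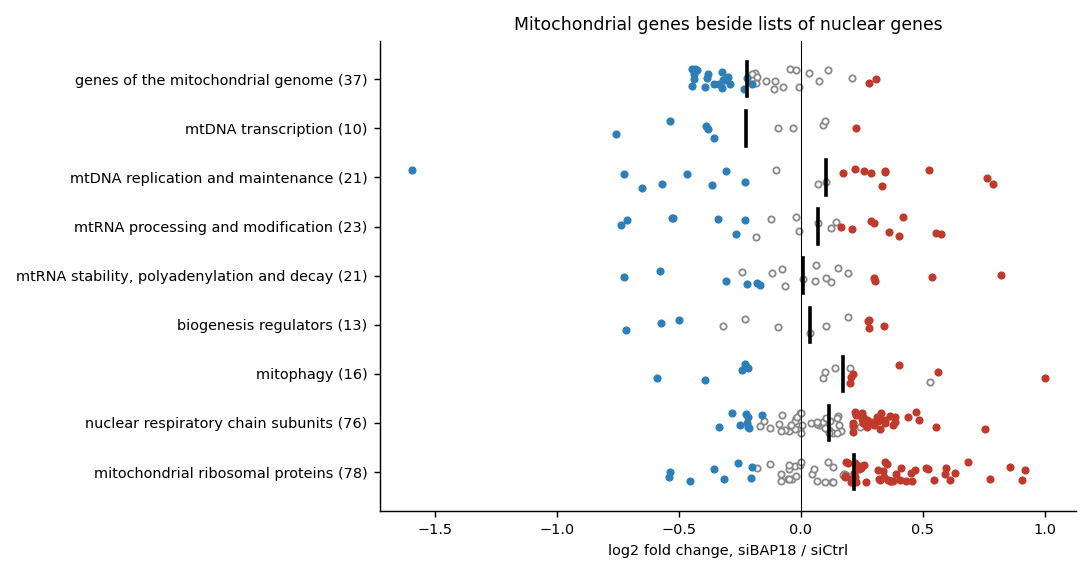
Log2 fold change (siBAP18 over siCtrl) of the 37 mitochondrial genes and of 8 lists of nuclear genes, with the number tested in brackets, 1 point for each gene, blue for lower and red for higher at an adjusted p under 0.05, open if not called, and a bar at the median. The medians are −0.22 for the mitochondrial genes and for transcription, 0.12 for nuclear respiratory chain subunits and 0.22 for mitochondrial ribosomal proteins, and the vertical spread of points has no meaning.

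The nuclear genome also holds copies of mitochondrial sequence, and reads can be split between a gene and its copy. Of 94 copies listed, 23 were tested, and 9 were lower and 0 higher, with a median log2 fold change of −0.26. The calls among all genes were 25.1% lower and 24.5% higher. At an unadjusted p under 0.05, 0 of the copies that passed the filters were higher by edgeR and limma. Without a filter edgeR called 1 of all 94 higher, MTND1P8, named here after its value was seen, with 6, 3 and 4 counts in siCtrl and 7, 35 and 6 in siBAP18, so that 1 library set it apart. DESeq2 had 1 of 94 higher at an unadjusted p. Without siCtrl replicate 2, 5 were lower. A stretch near the start of chromosome 1 held 7 copies with 98.6% of all copy counts. MTATP6P1 (chr1:633696-634376, GRCh38) had 29.3 counts for every 100 on MT-ATP6, from which it differs at 10 of 681 aligned bases, with identical runs of up to 141 bases. Its log2 fold change was −0.25 ± 0.07 (SE, edgeR adjusted p = 0.0054), near that of MT-ATP6.

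The next copies by count were MTCO1P12 and MTND2P28. MTCO1P12 had 6.58 counts for every 100 on MT-CO1 and differs from it at 20 of 1542 aligned bases. Its change was −0.25 ± 0.07 (SE, edgeR adjusted p = 0.00675), with the call lost without siBAP18 replicate 1 (adjusted p = 0.0663) or siCtrl replicate 2 (adjusted p = 0.0594). MTND2P28 had 16.9 counts for every 100 on MT-ND2 and differs from it at 17 of 1042 aligned bases. Its change was −0.11 (edgeR adjusted p = 0.276), beside −0.11 for MT-ND2, and it was called lower at −0.21 without siBAP18 replicate 3 (adjusted p = 0.00923). With the copies added, the mitochondrial share was 7.52% ± 0.290 of the library in siCtrl and 6.05% ± 0.454 in siBAP18 (SD, n = 3).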

How the data were processed

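RNA of 6 A549 libraries (3 siCtrl, 3 siBAP18) was measured. The authors deposited unnormalized read counts per gene, used for all tests. The authors also deposited RPKM values, which equalled counts per kilobase of listed length relative to the library total. Aligner, counter and strand setting are not given in the sources used here. The submitters' processing notes name the builds hg38 and GRCm38, and all 37 mitochondrial genes matched GENCODE 29 on GRCh38 in position and strand. Of counts from 1 to 20, 75.9% were even, and whether both reads of a pair were counted is not given. No column belonged to another series.

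Counts passing filterByExpr (20776 of 35474 genes) were scaled by TMM and compared with edgeR 4.0.16 (glmQLFit, glmQLFTest, R 4.3.3) and Benjamini-Hochberg adjustment over all genes tested. Calls used an adjusted p under 0.05. CPM are TMM-scaled. limma 3.58.1 and DESeq2 1.42.0 served in alternatives, together with other scalings, filters, a replicate block and each library left out. Only the main edgeR fit was tested on simulated data, with changes larger than that of any mitochondrial gene. No pair of replicates was a copy. Residuals of same-numbered libraries correlated at −0.0166, 0.0506 and 0.00379 across genes, so the numbers did not pair them. Copies and sequences were aligned and read with Python 3.11.15, pandas 2.3.3 and biopython 1.88, and plots drawn with matplotlib 3.10.9.

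The members and the hand-compiled lists were chosen with earlier results of these data known. Named were C17orf49, every rRNA and mRNA gene, the 4 tRNA genes with most counts and the 4 with the largest change. TFAM, POLRMT, LRPPRC and POLG were also named, with at most 3 genes per nuclear list (lowest adjusted p among those called) and the 3 nuclear copies with most counts. Some genes the rule selects are not reported here.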

Additional observations from a re-analysis of the deposited data

How the results depend on the processing

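Of 703 values of single mitochondrial genes over 19 alternatives, 627 stayed on the same side of the threshold, 51 lost their call and 25 gained one, and no called gene changed direction. MT-RNR2, MT-CO1, MT-CO2, MT-CO3, MT-ATP6, MT-ND4, MT-ND4L, MT-ND5, MT-TG, MT-TS2 and MT-TL2 were called lower and MT-TL1 higher in every alternative. Other scalings gave 18 to 20 lower genes, against 20. The count was 13 with the DESeq2 Wald test, 12 with limma on log2(RPKM + 0.1) and 11 with limma on log2(RPKM + 1) without a filter. Leaving out 1 library gave 15 to 28 lower and 1 to 4 higher genes, with most lower without siBAP18 replicate 3. The cause was not tested. A replicate block gave 24 lower and 3 higher genes, although the numbers did not pair the libraries. Adding the counts of nuclear copies to their mitochondrial gene, an alternative chosen after seeing the data, left 20 lower and 2 higher.

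The mitochondrial share differed by −1.41 percentage points, by −1.62 to −1.19 with 1 library left out and by −0.980 without the rRNA genes, which removes part of what is counted. Of the 104 nuclear genes of mitochondrial expression and turnover, 34 were lower, 22 with limma on log2(RPKM + 0.1). Every member had at least 372 counts per library. Strand use, reads shared with nuclear copies, overlapping genes and tRNA genes shorter than a read limit single values. With 3 cultures per group, an exact permutation test cannot go below 0.10.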
